A study of Mus musculus with 4 samples.

Results

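The comparison described here is the step from 0.5 h to 1 h after low-intensity pulsed ultrasound (LIPUS) in ST2 cells, taken as the log2 signal on the 1 h array minus that on the 0.5 h array. It uses 2 of the 4 arrays of the series. ST2 is an established, immortal line of fibroblast-like stromal cells from mouse bone marrow. LIPUS delivers small mechanical pulses and is applied clinically to speed the healing of broken bones. The 1 h group and the 0.5 h group are ST2 cells in medium with 10% serum that were exposed to LIPUS for 20 min at 25 mW per square cm and then returned to 37 °C for 1 h or 0.5 h. The series also holds 1 array of cells exposed in the same way and left for 3 h, and 1 Control array of cells kept at 37 °C. Neither of these 2 arrays enters the step, and their levels are given beside it as a description. Each group is 1 array, so there is no test, no p-value and no estimate of the spread between cultures, and precision is set by that number of arrays. A single cell line also limits how far the values describe stromal cells in general.

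Stimulated cells switch on genes in waves. Immediate-early genes are transcribed by factors that already wait in the cell, such as SRF and CREB, and many encode transcription factors whose transcripts are short-lived. Delayed early genes follow, often under the control of the proteins made in the first wave, and include repressors and signalling inhibitors that end it. Chaperone genes form a separate program under heat shock factor, and their transcripts usually last longer. The step between the first times after LIPUS was examined for the passage from one wave to the next.

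Of 18194 genes with a probe set of 1 symbol, 11508 had a signal above the median of all values, log2 5.23, on at least 1 of the 2 arrays, and these are the genes measured. The brightest probe set stood for each gene. A gene is said to have risen or fallen when it was at least 1.5-fold higher or lower at 1 h, a step of 0.58 on the log2 scale. The one error that could be estimated was how far 2 probe sets for a gene disagree about its step. The SD of this difference, divided by the square root of 2 to give the error of 1 probe set, was 0.135 over 5071 genes. It was 0.166, 0.131 and 0.1003 where the second probe set was dim, middling or bright. The median step of all measured genes was 0.01, and 53.4% of them lay above 0. Bacterial poly-A transcripts that are added to the RNA as labelling controls were higher at 1 h for 12 of 12 probe sets, by a median of 0.31 on the log2 scale, and the hybridisation controls for 9 of 9, by 0.16. The 3 probe sets for 18S ribosomal RNA were higher by 0.14 to 0.95. RNA integrity can be read from how far the 5′ probe set of a control gene lies from its 3′ probe set, and this log2 distance changed between the 2 arrays by −0.10 for Gapdh, by −0.10 for Actb, by −0.14 for Pcx and by 0.11 for Tfrc. The part of these differences in the steps below was not tested. Of 8 stromal markers 7 were above the floor on either array, and the log2 of their summed signal was 15.7 at 1 h and 15.7 at 0.5 h. Of the defining markers of other cell types, Ptprc, Adgre1, Pecam1, Cdh5, Adipoq, Ibsp, Cd79a and Alas2 lay under the floor on both arrays, whereas the macrophage genes Lyz2, Csf1r and Cd14, the endothelial gene Kdr, the osteoblast gene Sp7 and the lipid-binding gene Fabp4 lay above it, with steps between −0.32 and 0.08.

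Over the step 40 of the measured genes rose and 12 fell, which is 0.348% and 0.104% of them. At 2-fold the counts were 4 higher and 1 lower, 0.0348% and 0.00869%, and at 1.3-fold 222 higher and 130 lower, 1.93% and 1.13%. The falls were led by first-wave transcription factors, Fos and Egr1. The rises were led by Swt1, by noncoding transcripts and by a set of transcription regulators, among them Klf10, Hes1, Snai1 and Junb. Those that rose were mostly dim: 33 of the 40 lay below the median signal of all measured genes, and 7 of the 12 that fell. Just inside the rule lay Plcxd2 at a step of 0.5851 and Cdx2 at −0.59, and just outside it Trps1 at 0.582 and Tnnt2 at −0.57. Of the 52 genes past the rule 76.9% were higher, against 66.7% after quantile normalization and 48.7% with no floor. When the step was shifted so that the poly-A spikes did not move, a setting added after seeing the data that lowers the median step by 0.30, 8 genes were higher and 357 lower, or 2.19% higher. The steps below are therefore relative to the bulk of genes on the deposited scale.

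**Figure D1:**
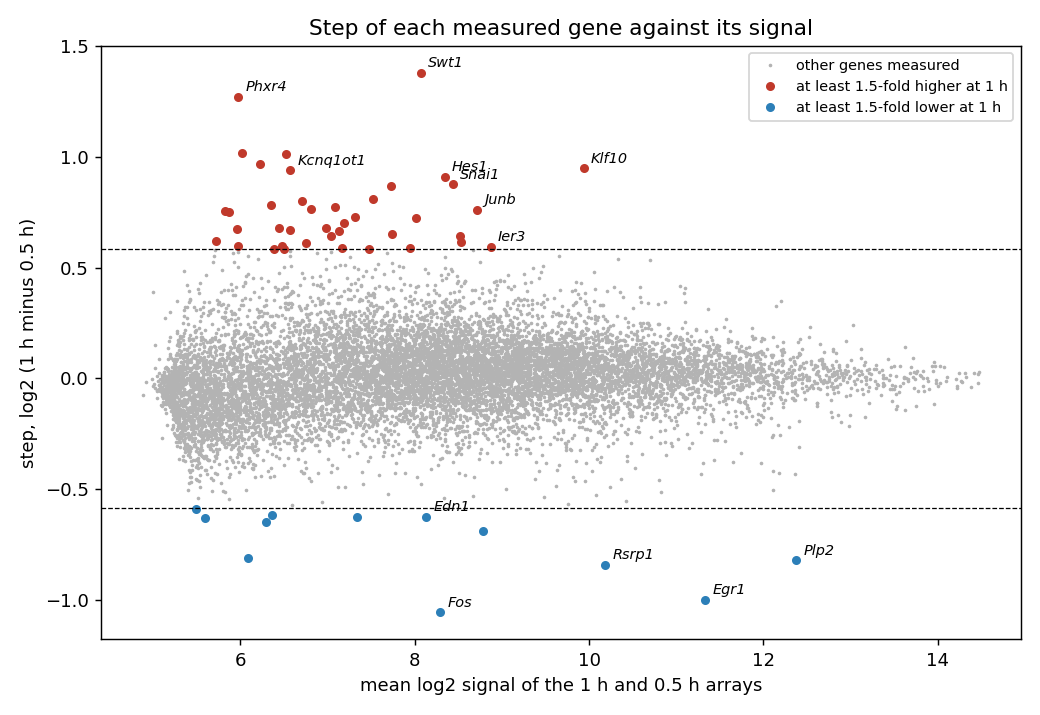
Each point is a measured gene, with its mean log2 signal on the 1 h and 0.5 h arrays on the x axis and its step, 1 h minus 0.5 h on the log2 scale, on the y axis; dashed lines mark 1.5-fold. The 40 genes that rose lie mostly at low signal, and the 12 that fell include the bright genes Egr1, Rsrp1 and Plp2.

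Fos, a subunit of the AP-1 transcription factor and the gene with the largest fall, had a log2 signal of 7.76 at 1 h and 8.82 at 0.5 h. That is a step of −1.06, or 2.08-fold lower. Its signal lay under the floor in the Control and was at 5.70 at 3 h, so the 1 h level was below that at 0.5 h and above both of these. Egr1, a zinc finger transcription factor induced by growth and mechanical stimuli, was at 10.83 at 1 h and 11.83 at 0.5 h, 1.998-fold lower and so just short of 2-fold. The Control and 3 h arrays had 8.68 and 8.84 for Egr1, so that at 1 h it was still 2.16 above the Control on the log2 scale. Rsrp1, whose product is rich in arginine and serine, was at 9.77 at 1 h and 10.61 at 0.5 h, 1.79-fold lower. Its other 2 measured probe sets had steps of −1.46 and −0.70, so all 3 were lower at 1 h. Edn1, which encodes the vasoactive peptide endothelin, was at 7.82 at 1 h and 8.45 at 0.5 h, 1.54-fold lower, and at 7.04 in the Control and 7.51 at 3 h. These 4 genes share a course in which the 0.5 h array was the brightest of the 4.

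Several other genes that were above the Control at 0.5 h had negative steps that did not reach the rule. Of those named here, Egr2, Dusp1, Ier2 and Jun are in the first-wave list. The splicing-factor kinase gene Clk1 had a step of −0.54, Egr2 one of −0.49, and the phosphatase gene Dusp1, which switches off MAP kinases, one of −0.46. Ptgs2, which encodes the inducible prostaglandin synthase, was at 9.72 at 1 h and 10.18 at 0.5 h, a step of −0.46, and its other measured probe set had −0.35. Ier2 and Jun had steps of −0.38 and −0.31, although the other probe set of Jun was at 0.01. Ccdc117 had a step of −0.56, with log2 signals of 5.998, 7.22, 6.66 and 5.91 in the Control and at 0.5, 1 and 3 h. Each of these genes was higher at both 0.5 h and 1 h than in the Control by its brightest probe set, and lower at 1 h than at 0.5 h.

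Of the genes that fell, only Fos and Egr1 are in the first-wave list used here, and Rsrp1 and Edn1 belong to other lists. The other 8 genes that fell are not in the first-wave list either. Plp2, which encodes a membrane proteolipid, was at 11.97 at 1 h and 12.79 at 0.5 h, 1.77-fold lower, against 12.92 in the Control and 12.50 at 3 h. Odf2, which encodes a component of centriole appendages, was at 8.44 at 1 h and 9.13 at 0.5 h, and its 3 other probe sets had steps of −0.49 to −0.05. For both, the 1 h array was the lowest of the 4. Chrna4, Rab15, Abcg8, Enpp3 and Pcyt1b had steps of −0.81, −0.65, −0.62, −0.63 and −0.63, at signals between 5.28 and 7.65. The other probe sets of Enpp3, at 0.13 and 0.05, and of Pcyt1b, at 0.28, went the other way. Cdx2, a homeobox gene, was under the floor at 1 h and at 5.82 at 0.5 h, at least 1.505-fold lower. Among genes with 1 array at or under the floor, the next lowest steps were −0.503 for Ltk, −0.472 for Itgb4, −0.468 for Tbx19 and −0.446 for AU040972, each an upper bound and short of the rule. Besides Ccdc117, the genes with the 15 lowest steps that were short of it were Tnnt2 at −0.57, the centrosomal kinase gene Nek2 at −0.57 and the nucleoside transporter gene Slc29a1 at −0.55. For Nek2 the other measured probe sets had steps of −0.40 and 0.12.

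**Figure D2:**
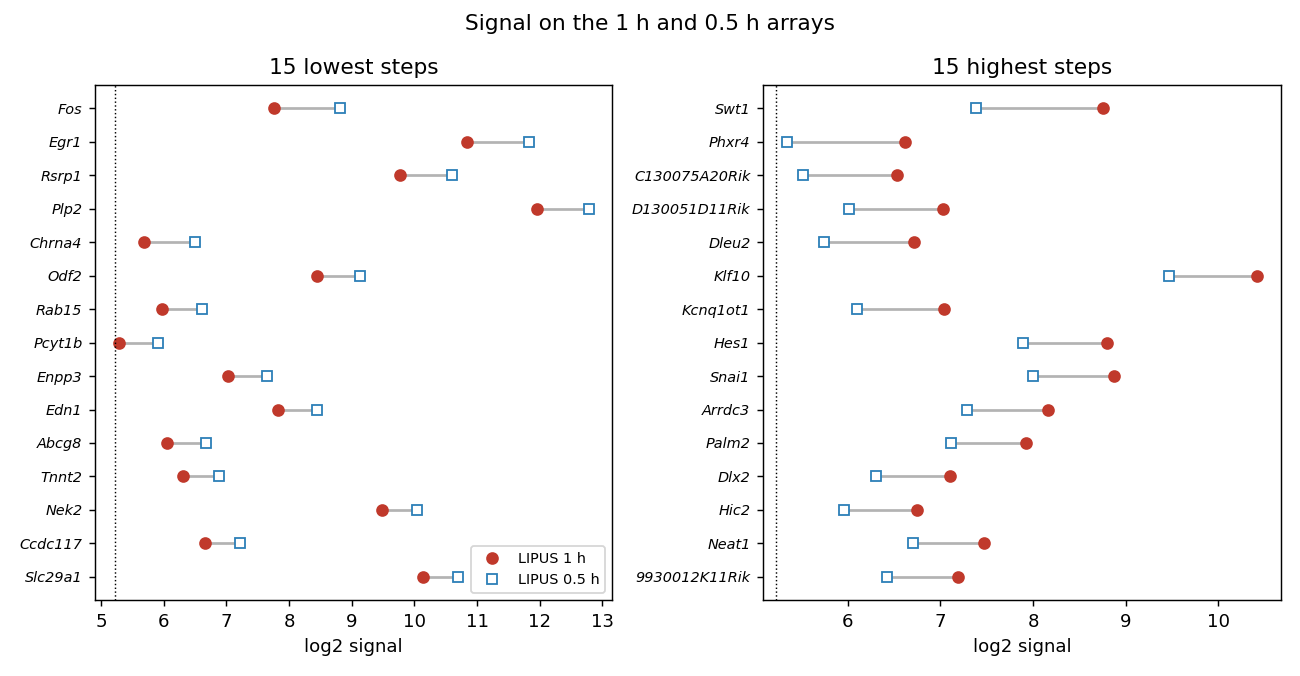
The log2 signal at 1 h (filled circles) and 0.5 h (open squares) is shown for the genes with the 15 lowest and the 15 highest steps among those above the floor on both arrays; the dotted line is the floor. Fos and Egr1 lead the falls and Swt1 the rises, and the step of Klf10 is 0.95 at a signal of 10.42 at 1 h.

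Klf10, a zinc finger transcription factor first described as a gene induced early by TGF-beta, was at 10.42 at 1 h and 9.47 at 0.5 h, a step of 0.95 or 1.93-fold. Its signal was 9.39 in the Control and 9.60 at 3 h, so it was brightest at 1 h alone and at 0.5 h lay within 0.08 of the Control. Hes1, a repressor and target of NOTCH signalling, had the same course: 8.80 at 1 h and 7.89 at 0.5 h, 1.88-fold higher, with 7.90 in the Control and 7.85 at 3 h. Snai1, a zinc finger repressor known for its part in epithelial-mesenchymal transition, was at 8.88 at 1 h and 8.002 at 0.5 h, 1.84-fold higher, with 7.88 in the Control and 7.94 at 3 h. For these 3 genes the Control, 0.5 h and 3 h arrays differed by at most 0.22, the distance of Klf10 between 3 h and the Control.

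Junb, a partner of Fos in AP-1 and counted as a first-wave gene, was at 9.10 at 1 h and 8.34 at 0.5 h, 1.70-fold higher. Its level was 8.22 in the Control and 8.32 at 3 h. Thus Junb rose over the interval in which Fos fell, while Jun had a step of −0.31 and Jund one of 0.06. Dlx2, a homeobox gene of craniofacial and neural development, was at 7.11 at 1 h and 6.30 at 0.5 h, 1.74-fold higher, with 6.28 in the Control and 6.07 at 3 h. Dlx1, its neighbour in the same gene cluster, had a step of 0.50, whereas Dlx3 was at −0.43. Hoxa5 had a step of 0.59, but its other measured probe set was at −0.010.

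Socs3, which encodes a feedback inhibitor of JAK-STAT signalling, was at 8.83 at 1 h and 8.22 at 0.5 h, 1.53-fold higher, and its other 2 probe sets had steps of 0.41 and 0.70. Ier3, an early response gene that acts in cell survival, was at 9.17 at 1 h and 8.57 at 0.5 h, 1.51-fold higher. The Control levels of Socs3 and Ier3 were 8.53 and 8.93, above those at 0.5 h, so part of each step is the distance from a 0.5 h value below the Control. Under quantile normalization Socs3, Ier3 and Hoxa5 had steps of 0.57, 0.55 and 0.55 and under cyclic loess steps of 0.5848, 0.56 and 0.57, all short of the rule. Trp53inp1, a p53-induced gene of stress and autophagy, rose 1.65-fold, with 8.37 at 1 h and 7.65 at 0.5 h. Arrdc3, which encodes an arrestin-like adaptor, rose 1.83-fold, with 8.16 at 1 h and 7.29 at 0.5 h. Lfng, which encodes a glycosyltransferase that modifies NOTCH receptors, was at 7.68 at 1 h and 6.96 at 0.5 h, but its Control level of 7.66 was within 0.021 of that at 1 h.

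The largest step belonged to Swt1, which encodes a nuclear RNA endonuclease. It was at 8.76 at 1 h and 7.38 at 0.5 h, 2.60-fold higher, and at 6.95 in the Control and 7.40 at 3 h. The other measured probe set of Swt1 had a step of 1.25, so both were past 2-fold. Phxr4, a noncoding transcript, was 2.42-fold higher, with 6.61 at 1 h and 5.34 at 0.5 h. C130075A20Rik and D130051D11Rik, also annotated as long noncoding RNAs, were each 2.02-fold higher. Dleu2, a noncoding host transcript of microRNAs, rose 1.96-fold. Kcnq1ot1, the antisense RNA that silences an imprinted gene cluster, rose 1.92-fold, with 7.04 at 1 h and 6.10 at 0.5 h and a step of 0.77 in its other measured probe set. At 0.5 h Phxr4, D130051D11Rik and Kcnq1ot1 differed from the Control by −0.29, −0.26 and −0.29, so part of each step is that distance. At 1 h they were 0.98, 0.75 and 0.65 above the Control. C130075A20Rik and Dleu2 differed from it by 0.0035 and −0.13 at 0.5 h and by 1.02 and 0.84 at 1 h. Neat1, on which nuclear paraspeckles are built, was 1.71-fold higher by its brightest probe set, with 7.48 at 1 h and 6.70 at 0.5 h, but its other probe set had a step of −0.15. Of 15 measured nuclear noncoding RNAs and paraspeckle proteins, Kcnq1ot1 and Neat1 rose and 0 fell, against 0.348% and 0.104% of all measured genes. The median step of the 15 was 0.02, against 0.01 for all genes, and the nuclear RNAs Malat1 and Meg3 were at −0.05 and −0.16.

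Of the 40 genes, 7 are annotated as long noncoding RNAs and 31 as protein-coding, against 300 and 11126 of the 11508 measured. Taken over all 300 measured long noncoding RNAs, 7 rose and 0 fell, 14 were at least 1.3-fold higher and 3 lower, and the median step was −0.03 with 126 above 0. The 7 are 2.33% of these transcripts, against 0.348% of all measured genes that rose. At 1.3-fold the shares of all genes were 1.93% higher and 1.13% lower. The rises therefore concern few of these transcripts, though a larger share than over all genes. Genes that rose were mostly dim, and the part of signal level in this share was not tested. The genes that rose and are not yet described had steps between 0.5851 and 0.81. They include Palm2 at 0.81, 9930012K11Rik at 0.77, the transcriptional repressor gene Hic2 at 0.78, Ccnt2, which encodes a cyclin of transcription elongation, at 0.70, the adhesion gene Alcam at 0.62, the corepressor gene Runx1t1 at 0.60 and the zinc finger genes Zfp950, Zfp799 and Zfp263 at 0.75, 0.64 and 0.59. For several the other probe sets did not follow: those of Ccnt2 ranged from −0.05 to 0.20, those of Tmem186 from −0.03 to 0.11, and that of Zfp950 was at 0.02, against 0.70, 0.67 and 0.75 for the brightest. Of the 40 genes, 17 had another measured probe set. In 13 of these all others were also higher at 1 h, in 6 at least 1 other was past the rule, and in 2, Neat1 and Hoxa5, none was higher. Among genes with 1 array at or under the floor, the largest rises were at least 0.49 for 2310067E19Rik, 0.423 for Scai, 0.396 for Sox11, 0.389 for E030024N20Rik and 0.351 for Pcdhb21, each a lower bound and none past the rule.

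**Figure D3:**
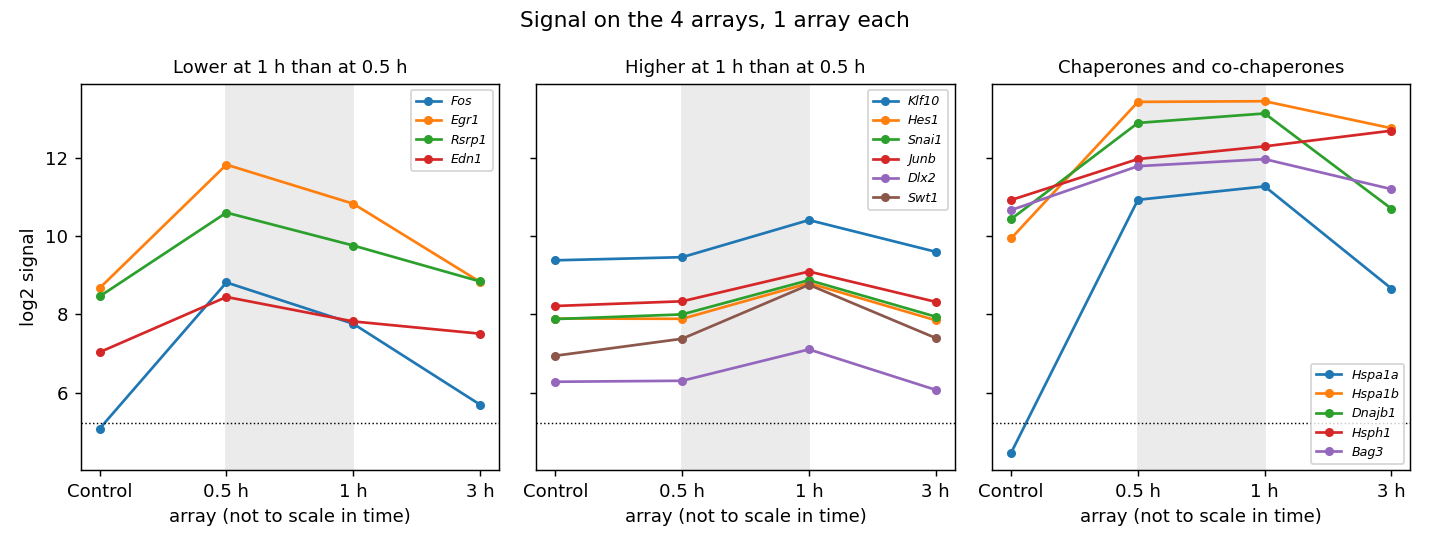
Log2 signal on the Control, 0.5 h, 1 h and 3 h arrays is plotted for genes that fell, genes that rose and chaperone genes; the grey band is the step from 0.5 h to 1 h and the dotted line the floor. Fos, Egr1, Rsrp1 and Edn1 are highest at 0.5 h, Klf10, Hes1, Snai1, Junb, Dlx2 and Swt1 are highest at 1 h, and the steps of the chaperone genes shown are between 0.02 and 0.34.

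Another set of genes was well above the Control at both times, with steps that were positive or only slightly negative and short of the rule. Hspa1a, the inducible HSP70 gene, was at 11.28 at 1 h and 10.93 at 0.5 h, a step of 0.34, with the Control under the floor. Its near-identical neighbour Hspa1b, with which it can share signal, was at 13.46 at 1 h and 13.44 at 0.5 h. The co-chaperone genes Dnajb1 and Bag3 had steps of 0.24 and 0.18, and Hsph1, which encodes a nucleotide exchange factor for HSP70, one of 0.325. Of 38 measured genes of the heat shock list, 0 rose and 0 fell. Of these 27 lay above 0, against 53.4% of all measured genes, and the median step was 0.10 against 0.01. The highest were Dedd2 at 0.42, Zfand2a at 0.39 and Dnaja4 at 0.37. Dnajb5 was the lowest at −0.27. Outside the heat shock list, Phlda1 had a step of −0.06, with 12.83 at 1 h and 12.89 at 0.5 h, and Arc one of −0.19. Atf3, which encodes a stress-induced transcription factor, was at 8.71 at 1 h and 8.31 at 0.5 h, a step of 0.40, with 6.03 at 3 h and 6.45 in the Control. Nfil3, a repressor of the circadian clock, also had a step of 0.40, and the antiproliferative gene Btg2 one of 0.22. Atf3 and Nfil3 were thus at least 1.3-fold higher at 1 h. Klf6 had a step of −0.05. Myc and Maff, with steps of −0.22 and 0.17, lay outside this set, since at 0.5 h they were only 0.17 and 0.14 above the Control.

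The promoters of 2 genes that fell and 3 that rose are given to show what the windows of the leading members hold. Each is the RefSeq window of 300 bases on build GRCm38.p6, 250 before to 50 after the annotated start, written 5′ to 3′ on the strand of the gene. Capitals mark matches to TATAAA on the strand of the gene, and on both strands to TGACG (the core of the cyclic AMP response element, also contained in the full element TGACGTCA), TGANTCA (AP-1), CACGTG (E-box) and the CArG box bound by SRF. The Fos window lies at chr12:85473640-85473939 on the plus strand, Rsrp1 at chr4:134923375-134923674 on the plus strand, Junb at chr8:84978699-84978998 on the minus strand, Dlx2 at chr2:71546705-71547004 on the minus strand and Swt1 at chr1:151428386-151428685 on the minus strand.
Fos: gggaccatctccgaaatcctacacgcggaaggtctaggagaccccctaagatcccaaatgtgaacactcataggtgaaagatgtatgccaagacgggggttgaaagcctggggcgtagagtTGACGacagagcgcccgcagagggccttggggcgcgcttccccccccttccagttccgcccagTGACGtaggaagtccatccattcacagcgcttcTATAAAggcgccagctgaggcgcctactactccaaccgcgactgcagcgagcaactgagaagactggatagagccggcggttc
Rsrp1: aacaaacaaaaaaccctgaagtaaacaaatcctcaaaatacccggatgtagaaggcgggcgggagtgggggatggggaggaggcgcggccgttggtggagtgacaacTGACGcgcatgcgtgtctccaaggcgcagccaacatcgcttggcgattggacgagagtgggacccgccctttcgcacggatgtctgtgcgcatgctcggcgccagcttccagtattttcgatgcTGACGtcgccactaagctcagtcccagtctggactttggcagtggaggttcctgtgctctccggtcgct
Junb: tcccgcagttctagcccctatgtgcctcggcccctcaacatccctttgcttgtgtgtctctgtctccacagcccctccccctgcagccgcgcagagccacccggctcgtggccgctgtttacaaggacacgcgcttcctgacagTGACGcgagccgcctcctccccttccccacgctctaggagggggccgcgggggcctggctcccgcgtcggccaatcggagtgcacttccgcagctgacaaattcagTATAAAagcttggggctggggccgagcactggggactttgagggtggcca
Dlx2: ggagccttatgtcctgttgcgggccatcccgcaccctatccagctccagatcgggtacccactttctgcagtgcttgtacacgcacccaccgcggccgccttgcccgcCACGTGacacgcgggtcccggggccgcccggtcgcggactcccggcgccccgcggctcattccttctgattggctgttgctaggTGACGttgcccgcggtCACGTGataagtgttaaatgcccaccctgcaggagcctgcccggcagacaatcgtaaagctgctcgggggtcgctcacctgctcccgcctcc
Swt1: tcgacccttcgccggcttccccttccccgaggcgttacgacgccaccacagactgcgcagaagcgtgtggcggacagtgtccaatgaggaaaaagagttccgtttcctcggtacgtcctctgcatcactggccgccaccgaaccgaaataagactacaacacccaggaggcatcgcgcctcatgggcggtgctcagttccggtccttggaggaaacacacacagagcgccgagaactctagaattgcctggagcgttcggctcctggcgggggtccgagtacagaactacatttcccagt

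Positions are those of the first base of a match from the annotated start, with negative values before it. The Fos window holds TATAAA at −33 and TGACG at −129 and −66. Rsrp1 holds TGACG at −143 and −19. Junb holds TGACG at −106 and TATAAA at 0. Dlx2 holds CACGTG at −142 and −42 and TGACG at −58, and the Swt1 window holds none of the motifs searched. Promoter windows were at hand for 29 of the 40 genes that rose (32 windows), for 10 of the 12 that fell (18 windows) and for 9311 measured genes (11883 windows). TGACG stood in 34.4% of the windows of genes that rose, 22.2% of those of genes that fell and 30.6% of all. TATAAA stood in 9.38%, 5.56% and 4.57% in the same order, CACGTG in 12.5%, 0% and 9.94%, and TGANTCA in 3.12%, 5.56% and 5.03%. The full element TGACGTCA stood in 1 window of the genes that rose, that of Hic2, and in 3% of all. No window of either set held the CArG box, which 1.3% of all windows held. Egr1, Klf10 and Hes1 had no window, and sites more than 250 bases before a start were not searched. The CArG count therefore does not say whether the leading genes have such a site. These matches describe the letters of the windows only.

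Gene lists that stand for known programs show how broad the step was. Over all measured genes 0.348% rose and 0.104% fell. At 1.3-fold 1.93% were higher and 1.13% lower, and 53.4% lay above 0. The counts of the lists below stand against these shares. Of 27 measured first-wave immediate-early genes, Junb and Ier3 rose, Fos and Egr1 fell and 23 did neither, with a median step of −0.00 and 13 above 0. At 1.3-fold 5 were higher and 4 lower. Among the higher were Zfp36, which encodes a protein that destabilises AU-rich transcripts, at 0.42, and Nr4a2 at 0.41, while the related genes Nr4a1 and Nr4a3 were at −0.25 and −0.30. Of 48 delayed early genes, Klf10, Hes1 and Socs3 rose and 0 fell, with a median step of 0.04 and 28 above 0. Pim1, a kinase gene, was at 0.46, Cebpb at 0.34 and Fosl2 at 0.33, whereas Rgs16 was at −0.41, Tnfaip3 at −0.29 and Fosl1 at −0.24. Both lists thus held steps of both signs. Of 18 feedback regulators of MAP kinase signalling 0 passed the rule, with Dusp4 at −0.51, Dusp6 at −0.50 and Spry1 at −0.31, against Spry2 at 0.42 and Dusp10 at 0.33.

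Targets of BMP signalling had the highest median of the lists with at least 5 measured members, 0.21 against 0.01 for all genes. Of 16 measured, Dlx2 rose and 0 fell, 4 were at least 1.3-fold higher and 11 lay above 0. Smad7 and Smad6, inhibitors of the pathway, had steps of 0.55 and 0.41, and Id1, which encodes an inhibitor of basic helix-loop-helix factors, was at 10.60 at 1 h and 10.06 at 0.5 h, a step of 0.54. Id2, Id3 and Id4 had steps of 0.33, 0.26 and 0.23, so all 4 ID genes were higher at 1 h and short of the rule. Of 12 measured NOTCH genes, Hes1 and Lfng rose, and the receptor gene Notch1 and the ligand gene Jag1 had steps of 0.44 and 0.36, while Hey1, Heyl and Dll1 were at −0.05, −0.10 and −0.32. Of 17 TGF-beta targets, Snai1 rose and 0 fell, with Snai2 at 0.39 and Tgfb1i1 at −0.51. Among 21 HOX, DLX and MSX genes, Hoxa5 and Dlx2 rose, with a median of 0.14 and 13 above 0.

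Some lists had steps mostly of one sign and short of the rule. Of 18 measured p53 targets 16 lay above 0, against 53.4% of all genes, with a median of 0.20; Trp53inp1 rose, Sesn1 was at 0.39 and Mdm2 at 0.34, and Cdkn1a was at 0.01. Of 19 cholesterol synthesis genes 17 lay above 0, with a median of 0.12 and Hsd17b7 highest at 0.44. Zinc finger regulators had a median of 0.16 with 18 of 20 above 0, and 3 of them, Zfp281 at 0.48, Zfhx3 at 0.39 and Zbtb20 at 0.38, were at least 1.3-fold higher. Over all 293 measured genes with a symbol that starts with Zfp or Zbtb, a family chosen after its values were seen, 225 lay above 0, 25 were at least 1.3-fold higher and 0 lower, and the median was 0.11. G2/M cell cycle genes had mostly negative steps, with 5 of 33 above 0 and a median of −0.12. Nek2, Bub1b, which encodes a spindle checkpoint kinase, and Plk1, a mitotic kinase gene, were lowest at −0.57, −0.49 and −0.42, while Top2a and Mki67 were at 0.05 and 0.07. The other measured probe sets of Nek2 were at −0.40 and 0.12. None of the 33 passed the rule. Under quantile normalization and cyclic loess the medians of the BMP, p53, cholesterol, zinc finger, NOTCH and homeobox lists kept a positive sign and that of the G2/M list a negative one, while a shift of −0.30 would put each of them below 0.

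**Figure D4:**
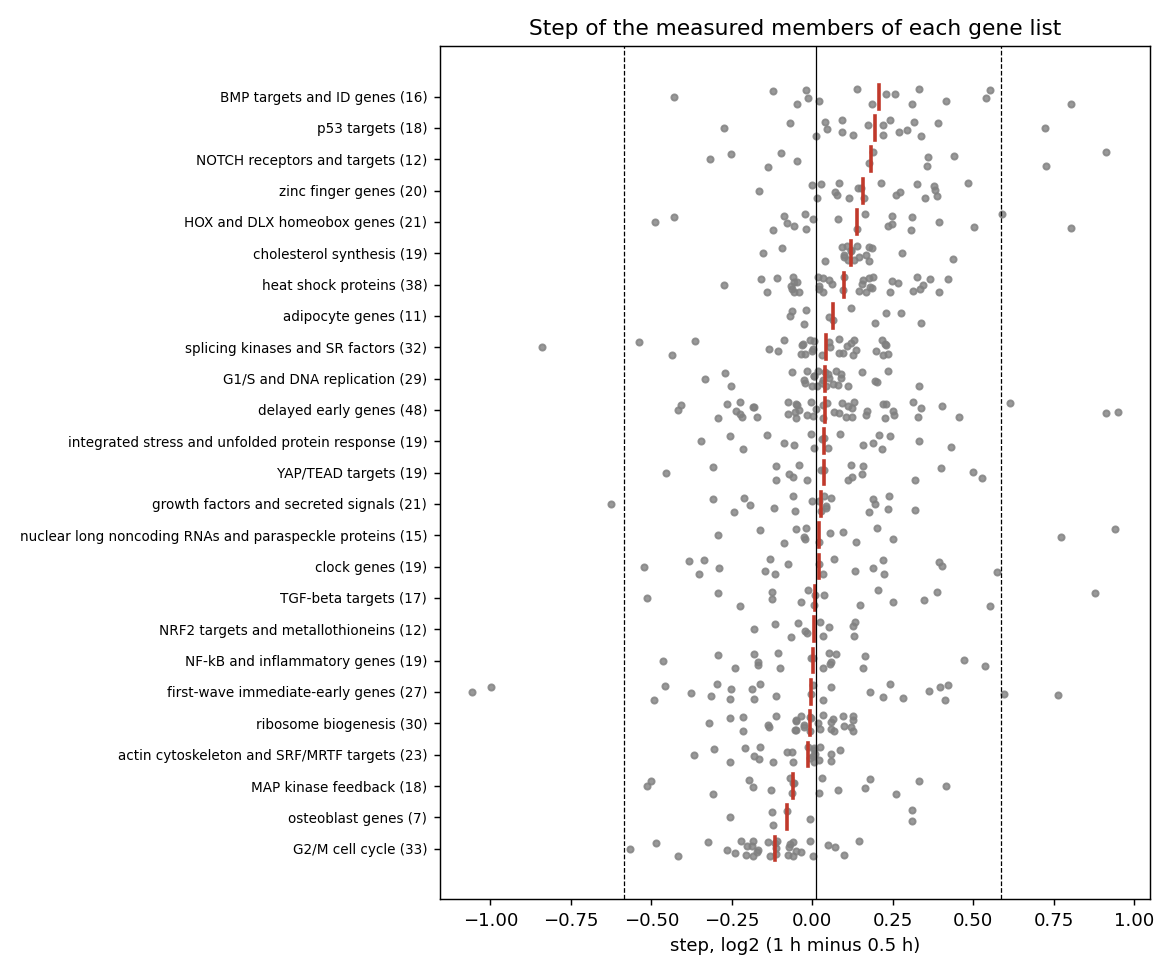
Each point is a measured member of a gene list, placed by its step on the log2 scale; red bars are list medians, the solid line is the median of all genes, dashed lines mark 1.5-fold, and the number of members is in parentheses. Medians run from −0.12 for G2/M genes to 0.21 for BMP targets, and the first-wave list is the widest, with Fos and Egr1 at the left and Junb at the right.

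Other programs passed the step with few changes. Of 32 splicing kinase and SR factor genes, Rsrp1 fell and 0 rose; Clk1 and Clk4 had steps of −0.54 and −0.44, and their relatives Clk2 and Clk3 were at 0.22 and 0.23. In the clock list 0 of 19 passed the rule, with Dbp at −0.52, Cry2 at −0.38 and Nr1d1 at −0.34, against Rora at 0.57, Nfil3 at 0.40 and Arntl at 0.39. Of 19 NF-kB and inflammatory genes 0 passed; Nfkbia, which encodes the inhibitor that the pathway itself induces, had a step of 0.54 and Ptx3, a secreted pentraxin gene, one of 0.47, while Cxcl1 was at −0.24. Edn1 was the 1 gene of 21 growth factors and secreted signals that passed the rule, with the matricellular gene Ccn1 at −0.31 and Tgfb2 at 0.32. Of the stress response genes outside the heat shock list, 0 of 19 passed, with Ppp1r15a at −0.35 and Chac1 at 0.43. None passed among 12 NRF2 targets, 19 YAP/TEAD targets, 23 actin and SRF/MRTF targets, 29 G1/S genes, 30 ribosome biogenesis genes, 7 osteoblast genes and 11 adipocyte genes, whose medians ran from −0.08 to 0.06.

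The arrays that the step does not use place it in the longer course. Of the 40 genes that rose, 37 were brightest at 1 h and 3 at 3 h, and of the 12 that fell, 10 were brightest at 0.5 h and 2 in the Control. These peaks follow in part from how the genes were chosen. At 0.5 h, 31 of the 40 lay within 1.3-fold of the Control, 7 were at least 1.3-fold below it and 2, Swt1 and Neat1, above it, against 11330, 78 and 100 of all 11508 measured genes. By any distance 25 of the 40 were below the Control at 0.5 h, against 5324 of all. A rise over the step favours genes with a low 0.5 h value, so nothing is read from these counts. The 7 below were Lfng, 9930012K11Rik, Tmem186, Hic2, Zfp799, 4632427E13Rik and Spin4, and at 1 h they were within 0.28 of the Control. The difference between 3 h and the Control shares no array with the step. It was above 0 for 34 of the 40 genes that rose, against 51.7% of all measured genes, with a median of 0.26 against 0.01, and 13 of the 40 were at least 1.3-fold higher at 3 h than in the Control, against 1.92% of all. The poly-A spikes were 0.41 and the 18S probe sets 1.79 higher at 3 h than in the Control by their medians, and their part in this difference was not tested. Banp, C130075A20Rik and Phxr4 were highest in this difference at 0.88, 0.79 and 0.76, and Klf10, Snai1, Hes1 and Dlx2 were at 0.22, 0.06, −0.05 and −0.21. The 3 h level was nearer to the 1 h level for 27 of the 40 and nearer to the 0.5 h level for 13, a set that includes Klf10, Hes1, Snai1, Junb, Dlx2, Dleu2, Neat1 and Swt1. Of all measured genes 5325 had a 3 h level above the midpoint of the 0.5 h and 1 h levels, and 6183 did not. For a gene with a negative step, a level above the midpoint is nearer to that at 0.5 h. The counts over all genes are therefore no background for the 27 and 13. Both levels are also those that chose the 40. For the 12 that fell, the difference between 3 h and the Control had a median of −0.04, with 5 above 0.

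Gene spans in RefSeq on GRCm38.p6 were known for 39 of the 40 genes that rose, 12 of the 12 that fell and 11489 of all measured. Their medians were 12.7, 13.9 and 22.6 kb. The named early and delayed regulators were shorter: Ier3 spans 1.199 kb, Junb 1.84, Hes1 2.44, Fos 3.38, Egr1 3.75, Snai1 4.62 and Klf10 9.25 kb, whereas Swt1 spans 60.8 kb and Kcnq1ot1 83.4 kb.

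Probe sets with no listed gene rose more often than those with a symbol. Of 2107 such probe sets with signal, 148 were at least 1.5-fold higher at 1 h and 2 lower, which is 7.02% and 0.0949%, against 169 and 30 of 20416 probe sets with 1 symbol, 0.828% and 0.147%. The difference was present among dim and middling probe sets: in the dim range 125 of 1404 unlisted probe sets were higher, 8.9%, against 107 of 6174, 1.73%, and in the middle range 23 of 363, 6.34%, against 52 of 7202, 0.722%. In the bright range 0 of 340 were, 0%, against 10 of 7040, 0.142%. Neighbouring probe sets may report the same transcript, so these counts are not counts of genes. Against the Control, 6 of 2008 unlisted probe sets were higher at 0.5 h, 86 of 2107 at 1 h and 16 of 2088 at 3 h, or 0.299%, 4.08% and 0.766%. The shares of probe sets with 1 symbol were 0.343%, 1.05% and 0.342%. At 3 h 23 of 2130 unlisted probe sets were at least 1.5-fold lower than at 1 h, 1.08%, against 0.49% of those with a symbol. The 18S and poly-A control probe sets given above were also higher on the 1 h array than on the 0.5 h array, and their part in these counts was not tested.

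**Figure D5:**
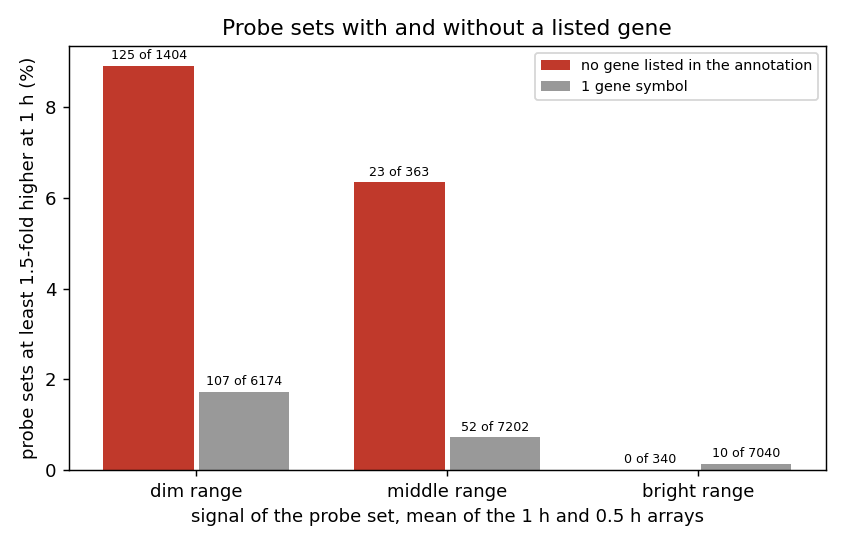
The share of probe sets at least 1.5-fold higher at 1 h than at 0.5 h is shown for probe sets with no gene in the annotation (red) and with 1 symbol (grey), in 3 ranges of signal; numbers above the bars are counts. Unlisted probe sets reach 8.9% in the dim range and 6.34% in the middle range, against 1.73% and 0.722% of those with a symbol.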

How the data were processed

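Per the labels' protocols, RNA was accepted above an integrity number of 9.5, and 500 ng of it was labelled by a 3′ in vitro transcription kit for Affymetrix mouse arrays, 1 per group, so signal comes mostly from 3′ ends. The authors deposited 1 value per probe set, read here as log2 from its range, with medians that differ little between arrays. How probes were summarised and scaled is not stated in the labels. Of 45101 probe sets, 34958 had 1 symbol, 932 had several and 9211 were not listed in the platform annotation. Symbols were updated through the Entrez number for 34754.

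The probe set with the highest mean over the 4 arrays stood for a gene. Values under the floor, log2 5.23, were raised to it, and a step with 1 array at or under it is a bound. A fixed rule of size replaced a test. The members and the 32 gene lists were chosen with earlier results of these data known. Named were the 15 highest and 15 lowest steps, the 5 largest bounds each way, list members past 1.5-fold and a panel of 30 genes. Other named genes were chosen after their values were seen. Planted steps in simulated data were used to check the counting. Alternatives covered floor, scaling, probe set choice and fold. Tools were Python 3.11.15, numpy 2.4.6, pandas 2.3.3, R 4.3.3 and limma 3.58.1.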

Additional observations from a re-analysis of the deposited data

Results flagged for a closer look

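Signals outside the gene comparison stood above their level on the Control array. The poly-A spike probe sets had a median log2 signal 0.28 higher at 1 h than in the Control, with 12 of 12 higher, against −0.05 at 0.5 h and 0.41 at 3 h. The 18S ribosomal RNA probe sets were 1.91 higher at 1 h than in the Control by their median, 0.96 higher at 0.5 h and 1.79 higher at 3 h. Among probe sets that the annotation does not list, 86 of 2107 were at least 1.5-fold higher at 1 h than in the Control. Groups of 1 array allowed no search for a sample that stands apart from its group.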

How the results depend on the processing

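Against 40 genes higher and 12 lower, the floor at the 25th percentile gave 51 and 34, the floor at the 75th percentile 9 and 6, and no floor 58 and 61. A rule of 2-fold gave 4 and 1, and one of 1.3-fold 222 and 130. Median centring gave 40 and 12, quantile normalization 30 and 15 (66.7% higher, against 76.9%), and cyclic loess 36 and 12, with 30 of the 40 and 11 of the 12 past the rule under each of these 3 scalings. The mean of all measured probe sets gave 39 and 10, of which 29 and 8 were shared. The second brightest probe set gave 41 and 10 among 5277 genes, sharing 5 and 1, and turned the sign for Pcyt1b (0.28), Enpp3 (0.13), Hoxa5 (−0.010) and Neat1 (−0.15), which had passed the rule, and for Jun (0.0061) and Klf6 (0.073), which had not. Requiring both arrays above the floor gave 40 and 11. Added after seeing the data, a shift that set the poly-A spike step to 0 lowered the median step by 0.30 and gave 8 higher and 357 lower. The NOTCH median was 0.40 with the 75th percentile floor and 0.02 with none. These medians are of different members. Only Hes1, Notch1, Notch2 and Rfng lay above that floor, log2 7.72, and all 17 with a probe set entered with none. How far this accounts for the change was not tested. Under each floor and scaling other than the poly-A shift, 7 of the 40 (Swt1, Klf10, Hes1, Snai1, Junb, Trp53inp1 and Ccdc71l) and 6 of the 12 (Fos, Egr1, Rsrp1, Plp2, Odf2 and Edn1) passed the rule. No paired analysis was possible because each group is 1 array and the comparison has no test. Signal near the floor limits the dim genes.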
